A study of Mus musculus with 10 samples.

Results

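Kainate receptors are ionotropic glutamate receptors assembled as tetramers from the products of Grik1, Grik2, Grik3, Grik4 and Grik5, together with the auxiliary proteins encoded by Neto1 and Neto2. These 7 genes were taken by name from the 19938 genes measured in the hippocampus of Dp5/Dp1 mice, a model of Down syndrome, and each was read from 1 Affymetrix probe set. Grik1 alone of the 7 lies in a duplicated segment, so that it is present in 3 copies in Dp5/Dp1 mice, whereas the other members lie on other chromosomes and keep 2 copies. The question was which members of the family changed with the additional copy of Grik1, and whether the change of Grik1 differed from that of the genes duplicated with it.

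Dp5/Dp1 mice are compound transheterozygotes of a pair of duplications of mouse chromosome 16, Dp(16Cyyr1-Clic6)5Yah, called Dp5Yah here, and Dp(16Cbr1-Fam3b)1Rhr, called Dp1Rhr, in regions homologous to human chromosome 21. Every cell of the animal carries them. According to the study's methods, the Dp5Yah duplication was made through loxP sites placed in App and Runx1. Whole right and left hippocampus came from 5 Dp5/Dp1 males and 5 control males, all 16 weeks old, with 1 array per mouse. The controls were littermates with 2 copies of both segments, and their arrays also served comparisons with mice carrying a single duplication, which were not analysed here. C57BL/6N is the background in the labels and C57BL/6J that in the study's methods. Mutant arrays are titled Dp5Yah, with the name Dp5/Dp1 following in brackets.

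Subunits of the kainate class fall into a group that can form receptors on their own, GluK1 (Grik1), GluK2 (Grik2) and GluK3 (Grik3), and a group that needs a partner from the first, GluK4 (Grik4) and GluK5 (Grik5). In the hippocampus, receptors containing GluK2, GluK4 and GluK5 are known from the mossy fibre synapse onto CA3 pyramidal neurons, and GluK1 is best known from GABAergic interneurons. Neto1 and Neto2 are transmembrane proteins with CUB domains that bind the receptors and change their gating.

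Levels are RMA log2 values, on which a step of 1 is a doubling of signal, and group values are means ± SD over 5 mice (n = 5). Differences are Dp5/Dp1 minus control on the same log2 scale, with their standard error (SE). A gene is said to have risen or fallen where limma's adjusted p, over all 19938 genes, was under 0.05. Signals of different probe sets depend on their probes and were not set against each other as amounts of RNA. In whole tissue, a change in the number of cells of a type cannot be told apart from a change of RNA per cell. Medians of the 10 arrays lay between 6.73 and 6.80, and arrays correlated at 0.996 to 0.998 across genes. The number of arrays limits the precision, and no array pair was identical.

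Grik1 was the single member of the family that rose. The gene spans chromosome 16, 87895901 to 88290863 (GRCm38). Its signal in control mice 1 to 5 was 7.33, 7.35, 7.16, 7.31 and 7.36, and in Dp5/Dp1 mice 1 to 5 it was 7.64, 7.61, 7.64, 7.84 and 7.59. All Dp5/Dp1 mice lay above all control mice, with control mouse 3 the lowest of its group and Dp5/Dp1 mouse 4 the highest of its own. The group means were 7.30 ± 0.08 and 7.66 ± 0.10, a log2 difference of 0.36 ± 0.05 (SE; limma adjusted p = 0.0153), or 1.28-fold with a 95% interval of 1.19 to 1.39. The interval of the log2 difference, 0.24 to 0.48, lay wholly below 0.58, the log2 of the ratio of 3 copies to 2. This was not particular to Grik1. The 43 other genes of the Dp5Yah interval, compared below, had a median difference of 0.36. Ltn1 among them, at percentile 95.9 by mean signal, differed by 0.38. Why differences fell short of 0.58 was not tested. The exact two-sided permutation test of Grik1 alone gave p = 0.00794, the smallest that 5 against 5 arrays allow.

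Of the 7 members, 1 was called by limma, against 0.206% of all genes tested (41 of 19938). Likewise 1 member had groups that did not overlap, against 1.08% of all genes, and 1 had an unadjusted p under 0.05, against 6.06%. The rank-based FCROS method, which the study used, passed 1 member as well, against 5.06% of all genes. In each of these counts the member was Grik1.

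**Figure D1:**
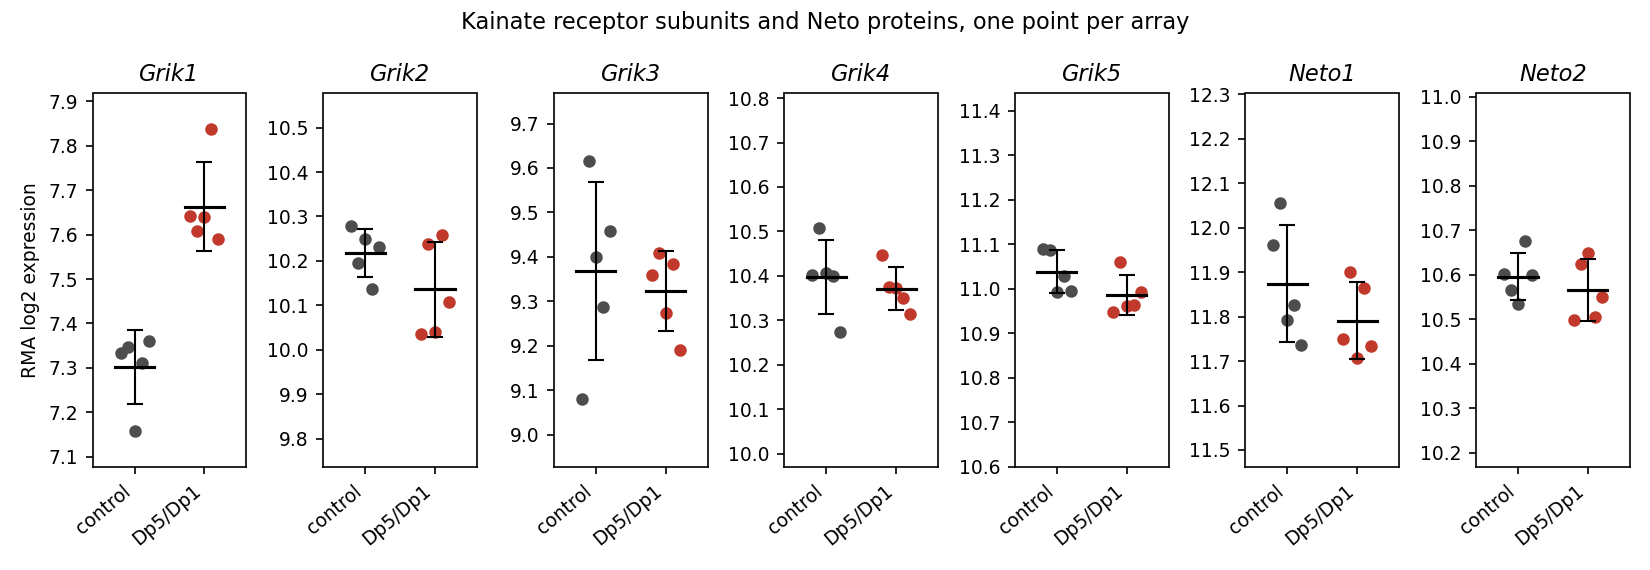
RMA log2 expression of the 7 genes, 1 point per array, controls in grey and Dp5/Dp1 in red, with the group mean (line) and SD (bars), n = 5 per group. All panels cover an equal length of the log2 scale, each around its own gene, and no axis starts at 0. For Grik1, Dp5/Dp1 arrays (7.59 to 7.84) sit above all controls (7.16 to 7.36), while the groups overlap for the other 6 genes.

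The adjusted p of Grik1 was close to the threshold when arrays were left out. Its difference ran from 0.32 to 0.38 over the 10 fits that left out 1 array, with adjusted p from 0.0172 to 0.0508. It missed the threshold without control mouse 4 (0.36, adjusted p = 0.0507) and without Dp5/Dp1 mouse 3 (0.37, adjusted p = 0.0508). With the interneuron marker level as a covariate the difference was 0.36, with an adjusted p of 0.186.

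Markers of other tissues and cells varied between arrays, and some lists were high where Grik1 was low. None of the 11 marker lists held a gene called by limma, whereas FCROS passed 3 of 7 medial habenula and 2 of 11 interneuron markers, all higher, 2 of 4 of the dentate gyrus, in opposite directions, and 1 lower marker each of CA3, choroid plexus and oligodendrocyte precursors, against 5.06% of all genes. Markers of the hippocampal fields were present on every array, with mean levels of 8.80 to 9.09 for the dentate gyrus, 8.06 to 8.57 for CA3 and 10.16 to 10.34 for CA1. Thalamic, glial and microglial lists had median differences between -0.14 (thalamus) and 0.06 (oligodendrocytes). Medial habenula markers, 7 of 7 higher in Dp5/Dp1, had mean levels of 6.59 to 7.15 in controls and 6.67 to 8.13 in Dp5/Dp1. The highest control was mouse 3 (7.15), which had the lowest Grik1 signal of that group. Dp5/Dp1 mice 2 (8.13) and 5 (7.51) were the highest of the mutants and had the 2 lowest Grik1 signals among them. Over the 10 arrays, with group means removed, the correlation between this marker level and Grik1 was -0.64. For astrocyte markers it was -0.59 and for microglial markers -0.53, and the highest of the 11 lists was 0.07 (oligodendrocytes). Because Dp5/Dp1 mice 2 and 5 had the lowest Grik1 signals of the mutants, leaving them out raises the difference by construction. Without them the difference of Grik1 was 0.40 (limma adjusted p = 0.0548). With choroid plexus and medial habenula markers as covariates it was 0.42 (limma adjusted p = 0.015). The part of these tissues in the difference of Grik1 was not tested.

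Interneuron markers are of interest beside Grik1 because GluK1 is abundant in these cells. Of 11 measured, 9 were higher in Dp5/Dp1, with a median difference of 0.07, and limma called none (lowest adjusted p = 0.714). At an unadjusted p under 0.05, 3 were higher and 0 lower, against 3.39% and 2.67% of all genes. Their mean level was 10.004 to 10.199 in controls and 10.17 to 10.29 in Dp5/Dp1. Gad1, a GABA-synthesising enzyme, differed by 0.09 ± 0.03 and Pvalb, the calcium-binding protein parvalbumin, by 0.21 ± 0.08. Npy, a neuropeptide named after its values were seen, differed by 0.31 ± 0.12 (adjusted p = 0.806), the largest difference of this list. FCROS passed Pvalb and Npy. With group means removed, Grik1 and the interneuron level had a correlation of -0.0022 over the 10 arrays. The part of these cells in the difference of Grik1 was not tested further.

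The other low-affinity subunits, Grik2 and Grik3, gave no call. Grik2, which encodes the principal subunit of mossy fibre kainate receptors (chromosome 10, 49093680 to 49790161), had signals of 10.28, 10.20, 10.25, 10.14 and 10.23 in control mice 1 to 5. In Dp5/Dp1 mice 1 to 5 they were 10.04, 10.24, 10.04, 10.26 and 10.11. Dp5/Dp1 mice 1, 3 and 5 lay below all controls and mice 2 and 4 within the range of the controls, so the groups overlapped. The difference was -0.08 ± 0.05 (SE; limma adjusted p = 0.844), with a 95% interval of -0.19 to 0.03.

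Grik3, a subunit known for low sensitivity to glutamate (chromosome 4, 125490259 to 125714173), had the widest spread of the members in the controls. Control mice 1 to 5 had signals of 9.08, 9.61, 9.40, 9.29 and 9.46, and Dp5/Dp1 mice 1 to 5 had 9.36, 9.41, 9.27, 9.38 and 9.19. All Dp5/Dp1 values lay inside the range of the controls. The SD of the controls was 0.20, against 0.09 in Dp5/Dp1, and the difference of -0.05 ± 0.08 (adjusted p = 0.948) had an interval of -0.23 to 0.14. Without control mouse 2 the difference was 0.016, and without control mouse 1 it was -0.12.

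The signal of Grik3 ran against markers of CA3, the dentate gyrus and neighbouring tissue, and with markers of interneurons and, more weakly, CA1. Choroid plexus markers, 10 of 10 measured lower in Dp5/Dp1 with none called by limma and 1 passed by FCROS, had mean levels of 6.93 to 9.15 in controls and 7.02 to 8.76 in Dp5/Dp1. Control mice 1 and 4, with the lowest Grik3 signals of their group, had the highest choroid plexus levels, 9.15 and 9.05, and control mouse 2, with the highest Grik3, had the lowest, 6.93. Dp5/Dp1 mouse 5, lowest for Grik3 among the mutants, had the highest choroid plexus level of that group, 8.76. The 3 CA3 markers did not vary equally, with SDs of 0.06 to 0.52 in controls. With group means removed, the correlation of Grik3 over the 10 arrays was -0.79 with choroid plexus and -0.92 with the 3 CA3 markers. It was -0.57 with dentate gyrus markers and 0.33 with CA1 markers. For the other lists it was -0.86 with astrocyte markers, -0.76 with thalamic markers and 0.77 with interneuron markers. These levels come from the same arrays and are not independent of each other. With choroid plexus markers as a covariate the difference of Grik3 was -0.10 (adjusted p = 0.768), and with interneuron markers -0.21 (adjusted p = 0.903).

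The subunits that need a partner, Grik4 and Grik5, were the least variable of the 5 receptor genes in Dp5/Dp1. Grik4 (chromosome 9, 42518182 to 42945000) had signals of 10.40, 10.51, 10.41, 10.40 and 10.27 in control mice 1 to 5, and of 10.45, 10.38, 10.37, 10.35 and 10.31 in Dp5/Dp1 mice 1 to 5. Every mutant lay within the range of the controls. The difference was -0.03 ± 0.04 (adjusted p = 0.943; interval -0.12 to 0.07), and 0.0013 without control mouse 2. Grik5 (chromosome 7, 25009849 to 25075694) had signals of 11.09, 11.09, 10.99, 11.03 and 10.996 in controls and of 10.95, 11.06, 10.96, 10.96 and 10.99 in Dp5/Dp1. Mutant mouse 2 lay among the higher controls and the other mutants at or below the lowest controls. The difference of Grik5 was -0.05 ± 0.03 (adjusted p = 0.845; interval -0.13 to 0.02).

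The auxiliary genes were also not called. Neto1, known from CA3 kainate receptors (chromosome 18, 86394815 to 86506721), had signals of 11.96, 12.06, 11.79, 11.83 and 11.74 in control mice 1 to 5, and of 11.75, 11.90, 11.71, 11.86 and 11.73 in Dp5/Dp1 mice 1 to 5. The 2 highest arrays were controls, and the remaining values of both groups were mixed. The difference was -0.08 ± 0.06 (adjusted p = 0.874; interval -0.22 to 0.05). Neto2 (chromosome 8, 85636718 to 85700952) had signals of 10.60, 10.57, 10.53, 10.68 and 10.60 in controls and of 10.50, 10.62, 10.65, 10.50 and 10.55 in Dp5/Dp1. Its groups overlapped, with a difference of -0.03 ± 0.04 (adjusted p = 0.925; interval -0.12 to 0.06). The difference of Neto2 was 0.027 with interneuron markers as a covariate.

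All 6 members with 2 copies had a lower mean in Dp5/Dp1, as did 48.5% of all genes. Their differences, -0.08 to -0.03, were small beside their intervals, which together reached from -0.23 to 0.14. None of the 6 was called by limma or by FCROS, and none had an unadjusted p under 0.05. The upper bound of each interval lay below 0.24, the lower bound for Grik1. A change of either sign within these bounds is not excluded for any of them. Arrays of 1 group did not rank alike for the different members. With group means removed, the closest pair over the 10 arrays was Grik5 with Neto1 (correlation 0.81), followed by Grik4 with Neto1 (0.59), and the values for Grik1 with the others ran from -0.10 to 0.34.

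The next comparison asked whether Grik1 differed from the genes duplicated with it. The mean of the other 43 protein-coding genes of the Dp5Yah interval, read from Cyyr1 to Clic6 by position without Cyyr1 itself and without a block of 32 claudin and keratin-associated genes, was subtracted from Grik1 on each array. This gave -1.31, -1.19, -1.48, -1.38 and -1.28 in control mice 1 to 5, and -1.25, -1.28, -1.33, -1.07 and -1.39 in Dp5/Dp1 mice 1 to 5. The groups overlapped, with Dp5/Dp1 mouse 4 the highest array and control mouse 3 the lowest. The means were -1.33 ± 0.11 and -1.26 ± 0.12, a difference of 0.06 ± 0.07 (SE; exact two-sided permutation p = 0.429). It was -0.014 where the median of the other genes was taken in place of their mean (exact permutation p = 0.865). Without the dimmest 40% of all genes the difference was 0.0054 (exact permutation p = 0.929). Without Dp5/Dp1 mice 2 and 5 it was 0.11 (exact permutation p = 0.268). A departure of Grik1 from its interval was not detected at this precision, which does not show that they changed alike.

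Within the 44 genes, Grik1 was in the middle by size of difference. The other 43 differed by -0.18 to 0.66 with a median of 0.36, and 20 of them by more than Grik1. The lowest were Clic6 (-0.18 ± 0.68) and Kcne2 (-0.16 ± 0.29), named after their values were seen. Both varied widely between mice and neither was called. Without them, Grik1 minus the mean of the rest differed by 0.04 (exact permutation p = 0.579), an alternative added after seeing the data. In all, 25 of the 44 were called and 41 had a higher mean in Dp5/Dp1. By signal Grik1 was 33rd of 44 from the brightest. None of the 11 dimmer genes was called, so that Grik1 was the dimmest gene of the interval to pass. Over all 19938 genes its mean signal was at percentile 49.3, and its p was the 29th lowest.

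**Figure D2:**
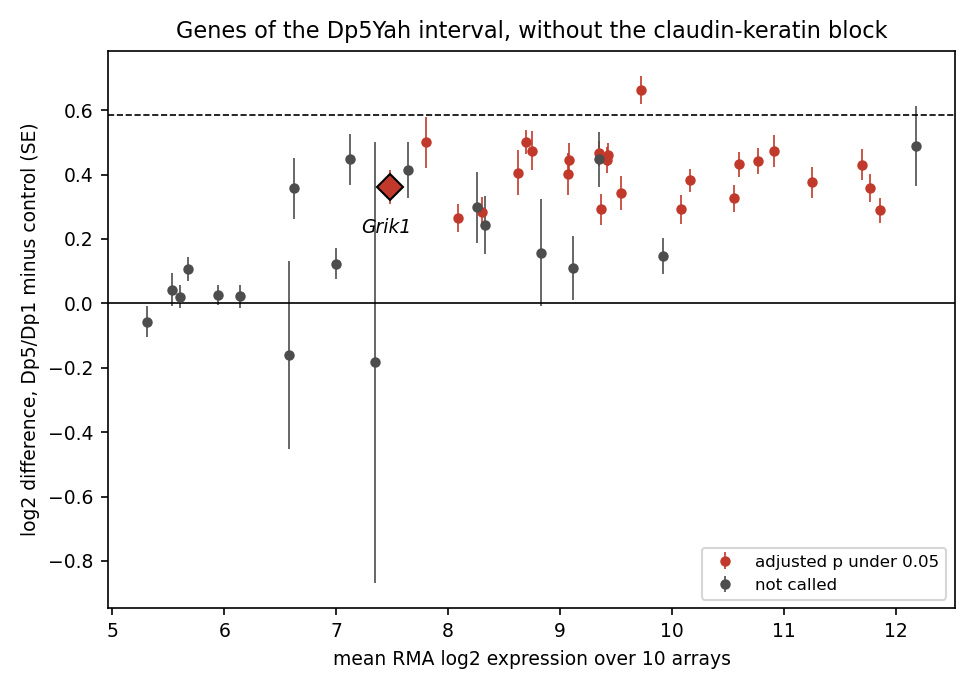
Log2 difference (Dp5/Dp1 minus control, bars SE) against the mean RMA log2 signal over 10 arrays for the 44 genes of the Dp5Yah interval, called genes in red and the others in grey, with the log2 of 1.5 dashed. Grik1 (diamond, 0.36) has the lowest signal of the 25 called genes, and the 11 genes to its left were not called.

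Along the chromosome, Grik1 was the last called gene before a long stretch without calls. Of the 35 other genes measured within 1 Mb, 8 lay on the proximal side and 6 of these were called, against 0.206% of all genes. N6amt1, a methyltransferase gene, rose by 0.47 ± 0.06 (adjusted p = 0.00653). Ltn1, a ubiquitin ligase acting on stalled ribosomes, rose by 0.38 ± 0.05 (adjusted p = 0.00576). Rwdd2b rose by 0.50 ± 0.08 (adjusted p = 0.025), Usp16, a histone deubiquitinase, by 0.41 ± 0.07 (adjusted p = 0.0479), and Cct8, a subunit of the TRiC chaperonin, by 0.44 ± 0.04 (adjusted p = 0.000442). These 5 are thus of the same order as Grik1. The remaining proximal genes are named after their values were seen. Bach1, a heme-regulated transcription factor and the nearest called gene, rose by 0.27 ± 0.04 (adjusted p = 0.0321). Map3k7cl had a difference of 0.12 (adjusted p = 0.806), and 2810407A14Rik, next to Grik1, one of -0.0062.

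The 27 genes on the distal side began with Cldn17 at 215 kb and are claudin and keratin-associated protein genes with gene models lying among them. None was called by limma or by FCROS and none had an unadjusted p under 0.05. Their differences ran from -0.05 to 0.06, and 26 of the 27 were among the dimmest 40% of all genes. The next called gene on that side, chosen after its values were seen, was Tiam1, an exchange factor for RAC, 1.496 Mb away (0.43, adjusted p = 0.000409). The number of called genes among Grik1 and its 35 neighbours was 7, and it fell to 2 without Dp5/Dp1 mice 2 and 5. RefSeq also lists 5 noncoding genes that overlap Grik1, and none of them had a probe set under its own symbol.

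**Figure D3:**
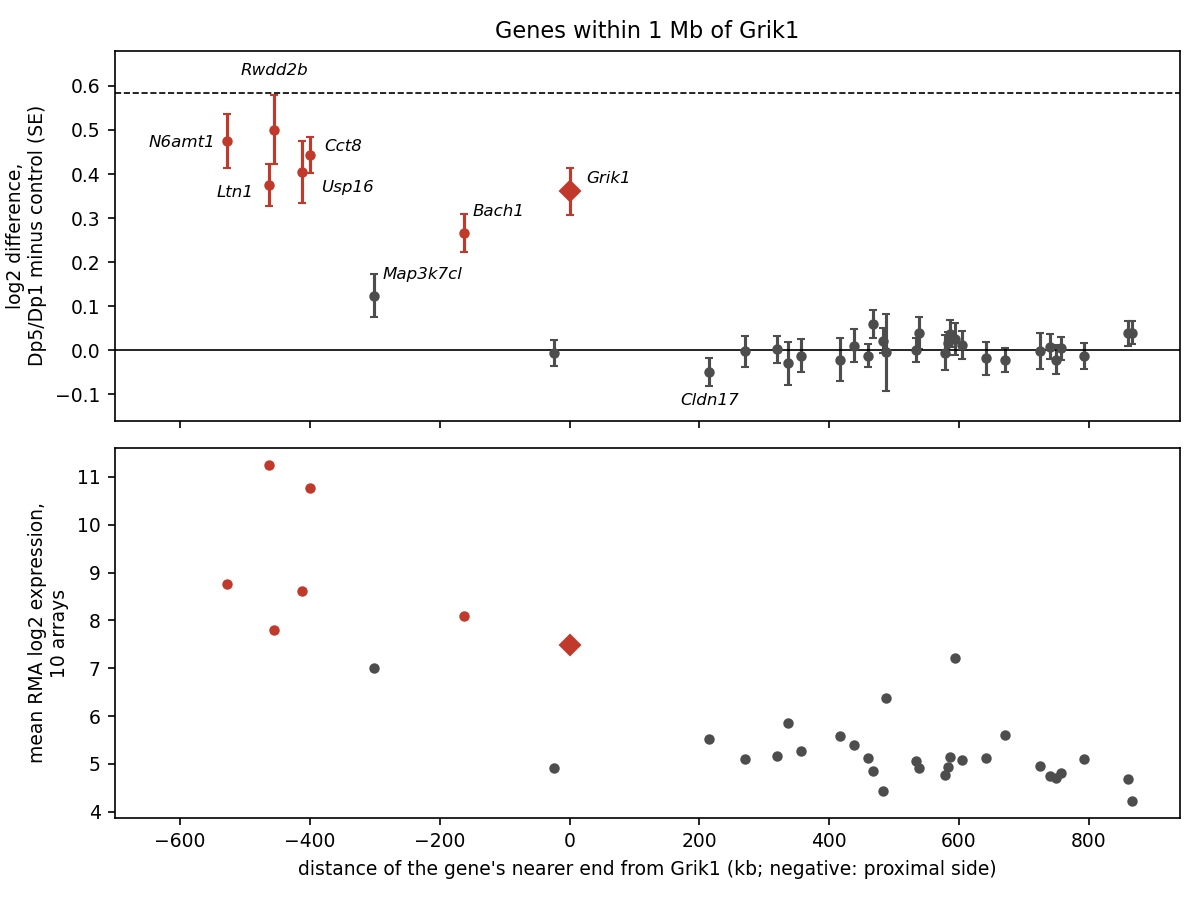
Genes within 1 Mb of Grik1 by the distance in kb of their nearer end (negative on the proximal side), with the log2 difference and its SE above and the mean RMA log2 signal over 10 arrays below. Called genes are red, Grik1 is the diamond and the dashed line is the log2 of 1.5. The 6 called neighbours all lie on the proximal side, and the 27 distal genes stay between -0.05 and 0.06.

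Other glutamate receptors, from lists of the AMPA, NMDA, delta and metabotropic classes, gave no call. The lists gave 18 genes for analysis. The mean was higher in 5 and lower in 13, with a median difference of -0.04, against 0.0019 over all genes, a range of -0.14 to 0.09 and a lowest adjusted p of 0.491. At an unadjusted p under 0.05, 1 was higher and 2 were lower, against 3.39% and 2.67% of all genes. FCROS passed 2, both lower, Grin2c and Grm7, which is 11.1% against 5.06% of all genes.

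Among AMPA receptor subunits, which carry most fast excitatory transmission, the lowest p belonged to Gria3 (-0.07 ± 0.05) and Gria4 (0.09 ± 0.06), with adjusted p of 0.852 and 0.864. Among NMDA receptor subunits these were Grin2c (-0.14 ± 0.05, adjusted p = 0.806) and Grin2b (-0.08 ± 0.04, adjusted p = 0.832). The delta receptor gene Grid1 differed by -0.0065 ± 0.05. Among metabotropic receptors, which signal through G proteins, Grm7 went from 9.72 ± 0.03 to 9.58 ± 0.07, a difference of -0.14 ± 0.04 (adjusted p = 0.491). Grm6 differed by 0.08 ± 0.03 (adjusted p = 0.809). It was the 1 receptor counted above as higher at an unadjusted p under 0.05. Its mean signal, 5.73, was low, at percentile 23.3 of all genes. None of the 18 had an interval that reached the lower bound of Grik1, the highest upper bound being 0.23.

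**Figure D4:**
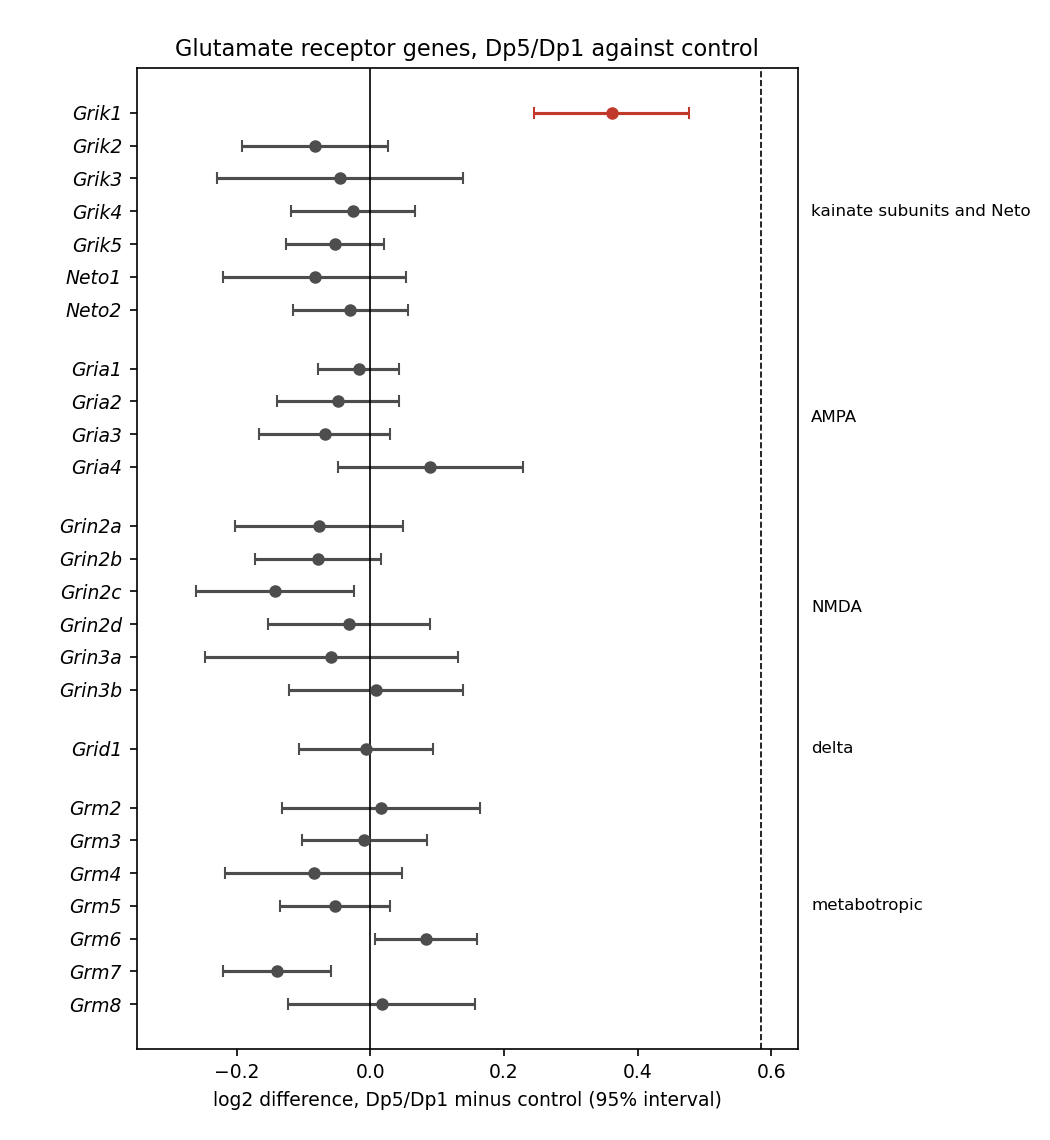
Log2 difference (Dp5/Dp1 minus control) with its 95% interval for the 7 members and 18 other glutamate receptor genes, grouped by class. Grik1, in red, is the single gene called by limma (0.24 to 0.48), and the dashed line marks the log2 of 1.5.

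AMPA receptors have auxiliary subunits too, and these gave the lowest p of the receptor lists outside the kainate family. Of 12 such genes limma called none, and 2 were lower at an unadjusted p under 0.05, against 2.67% of all genes. Cnih3, a cornichon protein that binds AMPA receptors, went from 10.14 ± 0.04 to 9.995 ± 0.05, a difference of -0.15 ± 0.03 (adjusted p = 0.282). All its Dp5/Dp1 arrays lay below all controls, against 1.08% of all genes without overlap, and FCROS passed it, against 5.06%. Shisa6 differed by -0.08 ± 0.03 (adjusted p = 0.806).

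Partners of kainate receptors in the cell were not called by limma either. Of 7 scaffold proteins, 3 were higher and 4 lower, with the lowest p for Cask (-0.08 ± 0.05) and Grip1 (0.07 ± 0.05). Of 6 ubiquitin and SUMO partners 3 were measured, among them Cul3 (-0.04 ± 0.03), a scaffold of ubiquitin ligases, and Senp1 (0.03 ± 0.06), a SUMO protease. Of 6 synaptic organisers, Cdh2, N-cadherin, differed by -0.08 ± 0.04 (adjusted p = 0.818) and C1ql3, a secreted C1q-like protein, by -0.10 ± 0.05 (adjusted p = 0.836). Transcripts of Grik1 and Grik2 are edited by ADAR enzymes at the Q/R site. Of 3 such genes, Adarb1 differed by -0.10 ± 0.04 (adjusted p = 0.806) and Adar by 0.03 ± 0.03 (adjusted p = 0.918). FCROS passed none in these 4 lists. Editing itself and the splice forms of the subunits cannot be read from 1 summarised probe set per gene.

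Likeness to Grik1 from mouse to mouse was sought only among genes outside both duplications. It is a description without a test, and the highest of many correlations over few arrays can arise by chance. Over 11904 genes among the brighter 60% and the 10 arrays with group means removed, the highest correlations were with Sytl5 (0.91), a Rab27 effector, Amz1 (0.90), a metallopeptidase, Ssbp2 (0.89), which binds single-stranded DNA, Rgs7bp (0.89), which binds RGS proteins, and Col9a2 (0.88), a collagen chain. Their own differences ran from -0.12 for Sytl5 to -0.0086 for Amz1, and none was called. With 1 array left out, the lowest correlation of each gene was between 0.80 and 0.83 and the highest between 0.91 and 0.98. The lowest value came without Dp5/Dp1 mouse 4 for Sytl5 and without control mouse 3 for the other 4, the arrays farthest from their group mean for Grik1.

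**Figure D5:**
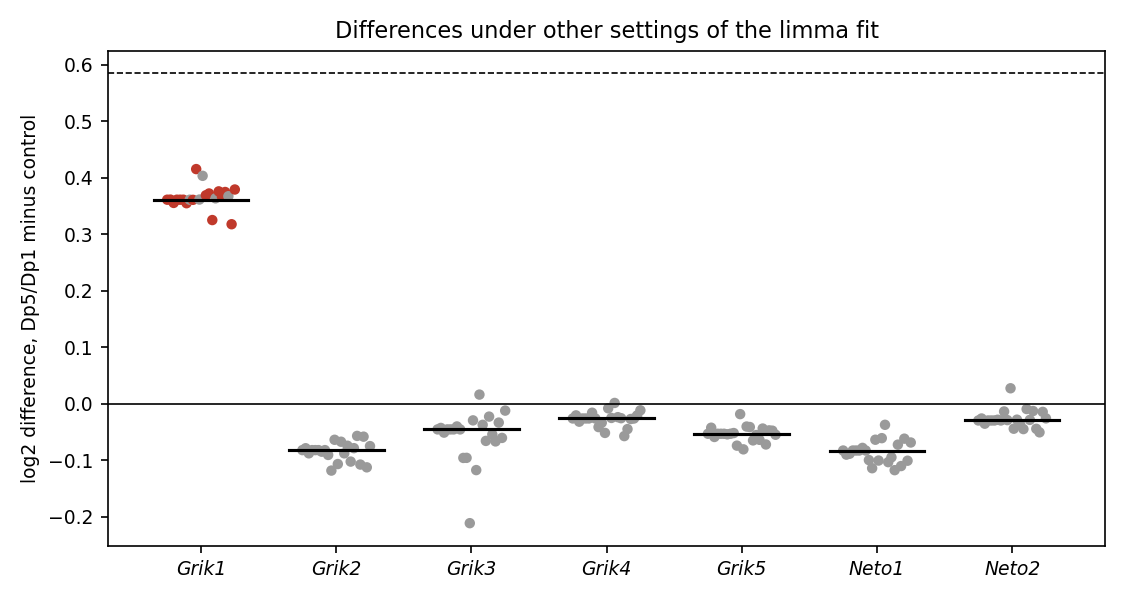
Log2 difference (Dp5/Dp1 minus control) of the 7 genes under the other settings of the limma fit, 1 point per setting, red where the adjusted p was under 0.05, with the value of the text as a black line and the log2 of 1.5 dashed. Grik1 stays between 0.32 and 0.42, and the other 6 lie between -0.21 and 0.03 without a call.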

How the data were processed

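The authors normalized the arrays by RMA and deposited log2 expression values; their processing notes name RMA, limma and mm10, without versions. Per the labels, targets were made from 200 ng of RNA. The quantile step of RMA makes arrays alike in distribution, and RMA understates differences of dim probe sets. Of 35556 probe sets, 21789 carried 1 symbol in the platform annotation, 1621 several and 12146 none; 21698 were matched to RefSeq (GRCm38, the assembly of mm10) by Entrez ID. The probe set with the highest mean was kept per gene.

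Differences were tested two-sided with lmFit and eBayes of limma 3.58.1 (R 4.3.3), and p-values were adjusted over 19938 genes by Benjamini-Hochberg. FCROS, the study's method, gives no standard error. It was rewritten from its description (25 array pairs, trim 0.25, tails of 0.025) as an alternative and may differ from the published package. As written here, its tails are set on the spread of mean ranks over all genes. A share near 5% of all genes therefore passes by construction. P-values measure the spread between mice. Likeness was Pearson's r of deviations from group means. Scripts were tested on simulated data.

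The members, gene lists and tests were chosen with earlier results of these data known. Named genes are the members, the called genes of each receptor, partner or interneuron list or else the 2 with the lowest p, up to 5 called genes near Grik1 by position and the 5 most like it; other marker lists are given by counts and ranges, and Npy was added after its values were seen. Alternatives comprised filters on dim genes, renewed normalization, centring, other handling of probe sets, variance settings, array weights, marker covariates, the replicate number as a block and leaving out arrays.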

Additional observations from a re-analysis of the deposited data

Results flagged for a closer look

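Each of the 7 genes was tested in both groups, 14 groups of 5 arrays, for an array that stands apart by Dixon's ratio, the gap to the nearest array over the whole range of the group (critical value 0.71). Grik1 was picked out in both groups. Its lowest control, mouse 3, had a signal of 7.16 (ratio 0.758), and its highest Dp5/Dp1 array, mouse 4, had 7.84 (ratio 0.797). Chance alone picks out about 5% of such groups. The arrays stand apart in opposite directions, and the difference of Grik1 was 0.33 without control mouse 3 (adjusted p = 0.025) and 0.32 without Dp5/Dp1 mouse 4 (adjusted p = 0.0172). Control mouse 3 also had the highest medial habenula level of the controls, 7.15, whereas Dp5/Dp1 mouse 4 had the lowest of the mutants, 6.67. Whether these tissue levels bear on the 2 values was not tested.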

How the results depend on the processing

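Over 23 alternatives, the difference of Grik1 stayed between 0.32 and 0.42 and passed its threshold in 18. The number of members called, 1, became 0 with the replicate number as a block (Grik1 adjusted p = 0.0967), with interneuron markers as a covariate and without Dp5/Dp1 replicates 2 and 5 together, and ran from 0 to 1 when single arrays were left out. What the replicate numbers stand for is not stated. Same-numbered arrays correlated at -0.35 to 0.29 over 5 pairs, and 2 of 10 arrays correlated best with their own number. So few pairs cannot show whether the numbers pair mice, and what the block takes out is not known. The calls among Grik1 and its neighbours, 7, became 3 with the replicate block, 4 with choroid plexus and medial habenula covariates, 2 with the interneuron covariate, 2 without replicates 2 and 5, and 3 to 6 when single arrays were left out. FCROS passed 2 of the 18 other glutamate receptors against 0 by limma. Grik1 minus the other Dp5Yah genes turned to -0.014 with their median, an alternative added after seeing the data, and ran from 0.01 to 0.10 with single arrays left out. Grik3 turned to 0.016 and Grik4 to 0.0013 without control replicate 2 (ranges with single arrays left out -0.118 to 0.016 and -0.057 to 0.0013), and Neto2 to 0.027 with the interneuron covariate. The cause of these changes was not tested. Grik2, Grik5 and Neto1 kept their direction in all 23 alternatives without a call. Calls over all genes, 41, were 26 with the replicate block, 27 with both tissue covariates and 19 with the interneuron covariate. They were 21 without replicates 2 and 5, and 29 to 39 with single arrays left out. FCROS passed 1008 genes, a share near the 5% that its tails set in advance. That number is not a count of changed genes to set beside the 41. Low signal limits what the dimmest genes near Grik1 can show.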
